A study of Mus musculus with 4 samples.

Results

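Ion-coupled solute carriers are membrane proteins that move one ion in exchange for, or together with, another. The genes described here are those named Slc4a, Slc8a, Slc9a, Slc12a, Slc20a, Slc24a, Slc26a and Slc34a followed by a number, chosen by symbol alone. They were 52 of the 50600 genes in the table, in 8 families. The libraries came from colonic epithelial cells, taken as primary cells from mice of the strain C57BL/6, and their RNA was sequenced in 2 libraries with the genotype Mettl14 WT and 2 with Mettl14 KO. Mettl14 encodes a subunit of the enzyme complex that writes N6-methyladenosine (m6A) into mRNA. The labels spell out no treatment, age, promoter or Cre line and do not say whether animals were pooled, and a code shared by all 4 titles (2W) is not explained. Each group held 1 library with abundant Xist counts and 1 with Y-linked counts.

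The colon absorbs salt and water and secretes bicarbonate, chloride and potassium. At the apical membrane, sodium enters through Na+/H+ exchangers (Slc9) and chloride through the chloride/bicarbonate exchanger Slc26a3. At the basolateral membrane, Slc12a2 (NKCC1) loads sodium, potassium and chloride into the cell for secretion, and K-Cl cotransporters such as Slc12a7 let potassium and chloride out. Slc20 and Slc34 proteins carry phosphate with sodium, most Slc4 proteins carry bicarbonate, and Slc8 and Slc24 proteins extrude calcium in exchange for sodium.

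The library totals ran from 22136440 to 24991060 counts, and 3 counts, the limit that a count of 0 allows, equalled 0.117 to 0.144 CPM (counts per library total, scaled here with TMM factors). The limit covers counting error only. Mettl14 was at 11.6 and 8.66 CPM in WT and at 3.99 and 3.93 CPM in KO, with a log2 fold change of -1.36 (SE 0.22, edgeR adjusted p = 0.0504). Both KO libraries were below both WT libraries, but the gene missed the threshold of 0.05, and reads can come from exons outside a deleted part. Epcam, which marks epithelium, was at 1329 and 1520 CPM in WT and 1059 and 1030 CPM in KO, whereas the endothelial gene Emcn and the glial gene Sox10 were each at 0 in 3 of the 4 libraries. Fibroblast markers summed to 52.6, 75.9 and 65.7 CPM in WT replicates 1 and 2 and KO replicate 1, and to 565 CPM in KO replicate 2. Leukocyte markers (8 genes) summed to 116.5 and 170.4 CPM in WT and 241.3 and 186.9 CPM in KO. All 8 had a positive log2 fold change, and 3 had both KO libraries above both WT libraries. Of these, Itgam was called higher, at 5.97 and 7.90 CPM in WT and 26.3 and 22.5 CPM in KO (edgeR adjusted p = 0.0434). In bulk RNA, fewer cells of a type and less RNA per cell cannot be told apart.

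The coding ends of 3 of these genes are shown because m6A is known to gather around stop codons, in a context whose common core is GGACT. Each run below is the last 150 coding bases with the stop codon, 5′ to 3′ on the transcript strand, with GGACT in capitals. The transcripts are from GENCODE M21 (GRCm38, the assembly of mm10), and all 3 genes lie on the plus strand. The Slc26a3 run spans chr12:31470923-31473495 in 3 exons, the Slc4a3 run chr1:75557729-75558890 in 2 and the Slc34a2 run chr5:53069481-53069630 in 1. These genes were chosen after their values were seen, from the transporters with low adjusted p. Not all of those are shown. Slc12a2 (edgeR adjusted p = 0.0526, against 0.0566 for Slc26a3) was left out and held 0 copies of GGACT in its last 150 coding bases.

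Slc26a3: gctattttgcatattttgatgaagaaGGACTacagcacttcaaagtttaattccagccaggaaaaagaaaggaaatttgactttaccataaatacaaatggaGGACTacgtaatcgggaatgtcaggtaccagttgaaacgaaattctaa

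Slc4a3: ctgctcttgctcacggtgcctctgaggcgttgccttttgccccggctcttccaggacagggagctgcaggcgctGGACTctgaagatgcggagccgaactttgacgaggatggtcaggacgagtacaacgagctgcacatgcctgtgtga

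Slc34a2: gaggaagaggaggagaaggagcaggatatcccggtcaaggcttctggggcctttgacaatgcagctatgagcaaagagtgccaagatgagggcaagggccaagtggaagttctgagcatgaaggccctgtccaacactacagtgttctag

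Slc26a3 held 2 copies of GGACT in this window, Slc4a3 held 1, and Slc34a2 held 0. GGACT was searched on the transcript strand only. In the last 150 coding bases it occurred in 9 of 51 transporters with a coding sequence (17.65%). Of all protein-coding genes in the table, tested or not, 3443 of 21421 had it (16.07%). Among the 34 transporters that were also tested, 8 had it (23.53%). The matching share among all tested protein-coding genes was not counted. Over whole coding sequences the median was 1.039 copies per kb in the tested transporters and 1.038 in all protein-coding genes. A match is only a run of letters, and methylation was not measured in these libraries.

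Transcript levels can be compared between genes only per length, and RPKM here is TMM-scaled CPM per kilobase of exon. In WT the highest were Slc26a2, a sulfate transporter, at 44.2 ± 15.7 RPKM, and Slc9a2 (NHE2) at 40.9 ± 6.66 RPKM (SD, n = 2). They were followed by the phosphate transporters Slc34a2 (NaPi-IIb) at 24.98 ± 5.52 RPKM and Slc20a1 (PiT-1) at 21.6 ± 10.2 RPKM. Neighbours within each of these pairs differed by less than their spread. Slc12a2 at 14.5 ± 1.27 RPKM and Slc4a2 (the chloride/bicarbonate exchanger AE2) at 13.2 ± 4.45 RPKM came next.

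In KO, Slc26a2 at 40.0 ± 0.641 RPKM and Slc9a2 at 34.6 ± 8.62 RPKM were again the highest pair. Slc12a2 stood at rank 3 with 24.3 ± 0.0907 RPKM, against rank 5 in WT. Slc34a2 stood at rank 6 with 11.9 ± 0.748 RPKM, against rank 3 in WT. Slc4a3 (AE3) stood at rank 35 in KO and 22 in WT. These ranks describe the 2 libraries of each group and carry no test.

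**Figure D1:**
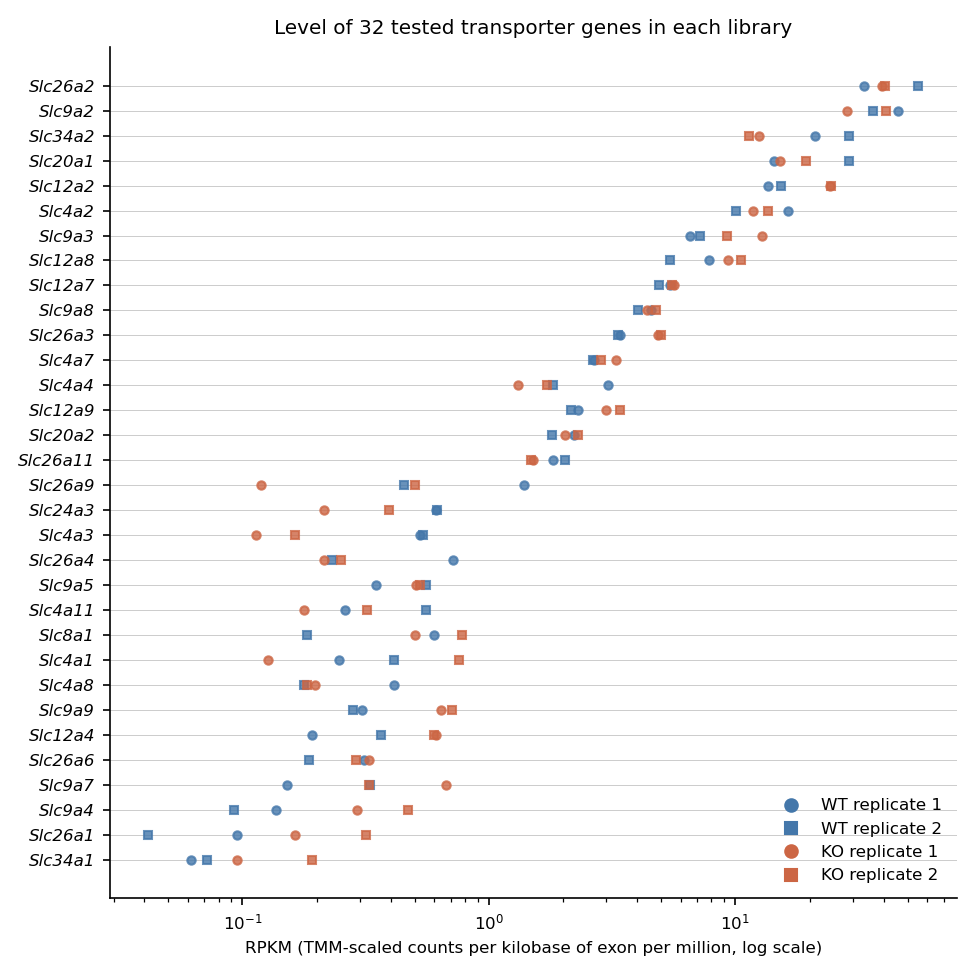
RPKM (log axis) of 32 of the 35 transporter genes that passed the filter on low counts, 1 point per library, ordered by the WT mean. Slc26a2 and Slc9a2 lie at the top in all 4 libraries, and the Slc12a2, Slc34a2 and Slc4a3 points separate by genotype.

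The comparison of KO with WT asked which transporter transcripts differ when Mettl14 is deleted. Of the 52 genes, 35 passed the filter on low counts and were tested, namely 7 of 10 Slc4, 1 of 3 Slc8, 9 of 9 Slc9, 6 of 9 Slc12, 2 of 2 Slc20, 1 of 5 Slc24, 7 of 11 Slc26 and 2 of 3 Slc34 genes. By edgeR at a Benjamini-Hochberg adjusted p under 0.05 over 14861 genes, 1 transporter fell in KO and 0 rose. Omitting either KO library, using RLE factors or leaving out mitochondrial genes left 0 transporters called by edgeR (with 8, 8, 12 and 12 at an unadjusted p under 0.05), while omitting WT replicate 2 gave 2 higher calls and 4 lower calls. With all 4 libraries, that 1 gene is 2.86% of those tested, against 3.61% of all genes tested (1.72% higher, 1.90% lower). At an unadjusted p under 0.05, 12 transporters passed, 9 higher and 3 lower (34.3%), against 30.5% of all genes (14.8% higher, 15.7% lower). An adjusted p under 0.1 was reached by 9 (25.7%, against 18.0% of all genes). The last 2 thresholds were looked at after the values were seen. The shares of transporters were thus near those of all genes.

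The groups did not overlap for 20 of the 35 transporters, with 13 above WT in KO and 7 below (57.1%, against 63.3% of all genes, 31.1% above and 32.2% below). Log2 fold changes ran from -1.94 (Slc4a3) to 1.82 (Slc26a1), 20 positive and 15 negative. Their median was 0.109, against -0.0127 over all genes, and the median size without sign was 0.635 against 0.368. Between the 2 libraries of a group, the median log2 difference without sign was 0.334 in WT and 0.181 in KO for the transporters, and 0.241 and 0.154 for all genes.

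**Figure D2:**
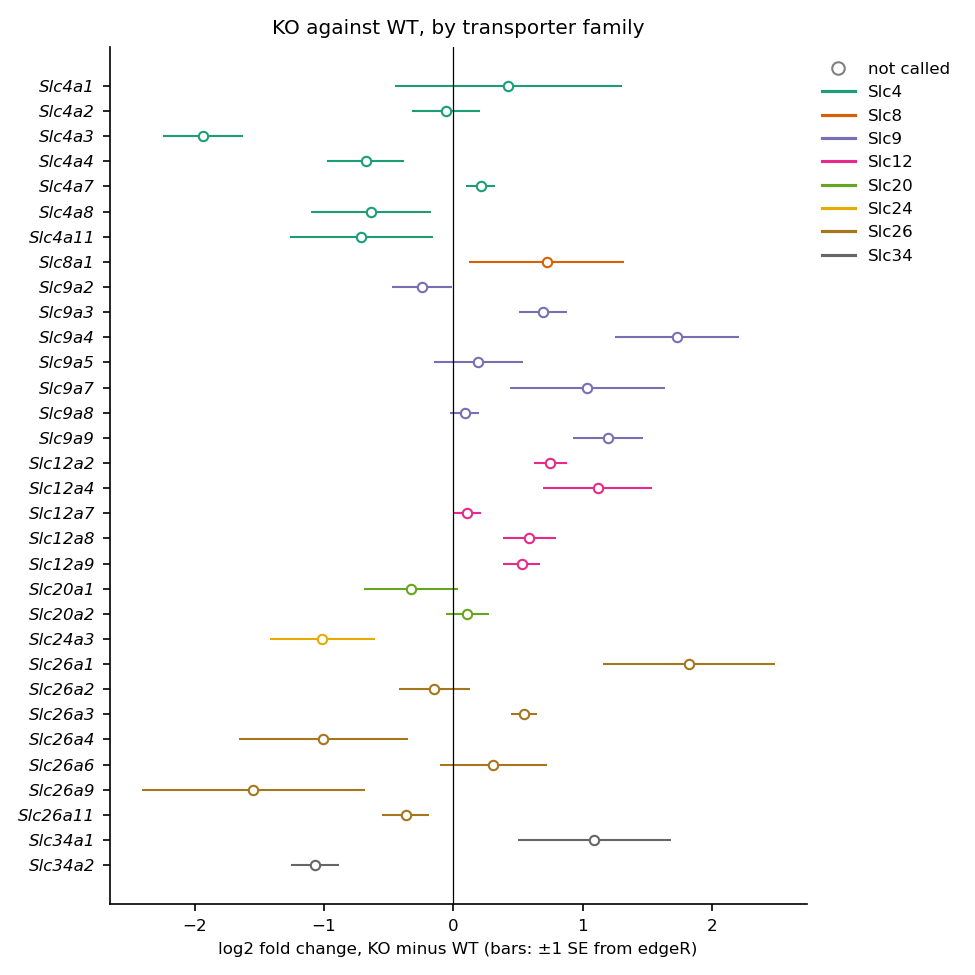
Log2 fold change, KO minus WT, of 32 of the 35 tested transporters with ±1 SE from edgeR, coloured by family. None of the genes drawn had an adjusted p under 0.05, and Slc4a3 and Slc26a1 lie at the ends of the range.

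Among the cation-chloride cotransporters (Slc12), Slc12a2 (ENSMUSG00000024597, chromosome 18), the Na-K-2Cl cotransporter of secretion, was at 148 and 168 CPM in WT and 265 and 266 CPM in KO. The KO libraries were nearly equal and above both WT libraries. Its log2 fold change of 0.75 (SE 0.13) missed the threshold (edgeR adjusted p = 0.0526), and it passed in 8 of 15 alternatives. Proliferation markers (6 genes) summed to 101.1 and 119.8 CPM in WT and 253 and 240.1 CPM in KO, with 3 of the 6 called higher. Their part in the level of Slc12a2 was not tested.

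Among the other Slc12 genes, Slc12a7 (KCC4), a K-Cl cotransporter, was at 69.1 and 61.9 CPM in WT and 71.5 and 69.8 CPM in KO (0.11 on the log2 scale, edgeR adjusted p = 0.521). Slc12a9, a member without well-established transport, was at 11.6 and 10.8 CPM in WT and 15.1 and 17.1 CPM in KO (0.53, edgeR adjusted p = 0.0898). Slc12a8, which is reported to carry nicotinamide mononucleotide, was at 34.8 and 24.1 against 41.4 and 47.0 CPM (0.59, edgeR adjusted p = 0.142). All 3 had KO libraries above WT, by small margins for Slc12a7. Slc12a4 (KCC1) was at 0.818 and 1.56 CPM in WT and 2.61 and 2.57 CPM in KO (1.12, edgeR adjusted p = 0.161), resting on 17 and 37 counts in WT.

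The Na+/H+ exchangers (Slc9) were all tested and none was called. Slc9a2, the most abundant of them per length, was at 318 and 252 CPM in WT and 199 and 284 CPM in KO (-0.24, edgeR adjusted p = 0.518). Slc9a3 (NHE3), the main apical exchanger of sodium absorption, was at 36.0 and 39.4 CPM in WT and 70.8 and 51.0 CPM in KO (0.69, SE 0.18, edgeR adjusted p = 0.0906). The Slc9a2 groups overlapped, and both KO libraries were above both WT libraries for Slc9a3, which passed in 4 of 15 alternatives. 

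Of the low Slc9 genes, the endosomal exchanger Slc9a9 (NHE9) was at 1.73 and 1.60 CPM in WT and 3.63 and 4.01 CPM in KO (1.197, SE 0.27, edgeR adjusted p = 0.071). Slc9a4 (NHE4), known from the basolateral membrane of the stomach, was at 0.626 and 0.421 against 1.33 and 2.14 CPM (1.73, SE 0.48, edgeR adjusted p = 0.0975). Both had KO above WT without overlap. Slc9a4 rests on 13 and 10 counts in WT, and it lies 49.8 kb from Slc9a2 on chromosome 1.

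The exchanger Slc9a8 (NHE8) was at 41.4 and 36.8 against 39.9 and 43.3 CPM (0.09, edgeR adjusted p = 0.624). Slc9a5 had a log2 fold change of 0.19 (edgeR adjusted p = 0.733) and Slc9a7 of 1.03 (edgeR adjusted p = 0.301). The Slc9a8, Slc9a5 and Slc9a7 groups overlapped.

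Of the 11 Slc26 anion transporters 7 were tested and none was called. Slc26a3 (DRA, ENSMUSG00000001225, chr12:31390871-31473917), the apical chloride/bicarbonate exchanger shown above with 2 GGACT copies, was at 21.7 and 21.4 CPM in WT and 30.8 and 31.9 CPM in KO. The replicates of each group were close and the groups did not overlap. The log2 fold change of 0.54 (SE 0.10) missed the threshold (edgeR adjusted p = 0.0566) and passed in 4 of 15 alternatives. Its neighbour at 45.9 kb, Slc26a4 (pendrin), was at 2.21 and 0.715 CPM in WT and 0.665 and 0.779 CPM in KO (-1.005, edgeR adjusted p = 0.348), with WT replicate 1 apart from the other 3 libraries.

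Slc26a2, first by mean RPKM in both groups but below Slc9a2 in WT replicate 1 and KO replicate 2, was at 410 and 684 CPM in WT and 489 and 500 CPM in KO (-0.15, edgeR adjusted p = 0.747). Both KO libraries lay between the WT libraries, and the sign turned without WT replicate 2 (0.30). Slc26a1, another sulfate transporter, was at 0.385 and 0.168 CPM in WT and 0.664 and 1.28 CPM in KO (1.82, SE 0.66, edgeR adjusted p = 0.152), on 8 and 4 counts in WT and 15 and 33 in KO. Slc26a9, a chloride channel and exchanger, was at 7.22 and 2.35 CPM in WT and 0.62 and 2.61 CPM in KO (-1.55, edgeR adjusted p = 0.29), where WT replicate 1 was highest and KO replicate 1 lowest. Slc26a9 was lower in KO between the libraries with Y-linked counts and between those with Xist counts. With the sex term, 1 of the 15 alternatives, it passed (-1.65, edgeR adjusted p = 0.0392). It passed in no other alternative, and its log2 fold change ran from -2.9 to -0.545 over the 15. The sex term value is given for this gene after seeing the data. Slc26a6 and Slc26a11 had log2 fold changes of 0.31 and -0.37.

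**Figure D3:**
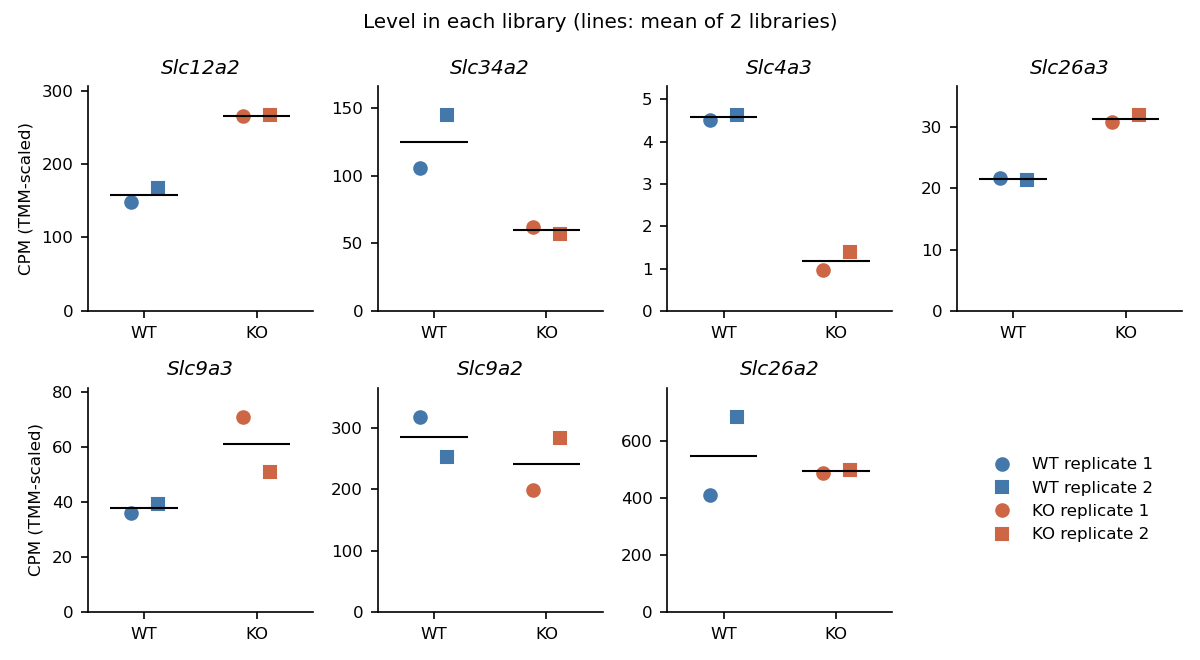
CPM of 7 transporters in each library, on linear axes from 0. Lines are the mean of the 2 libraries of a group. Slc12a2, Slc26a3 and Slc9a3 lie higher in both KO libraries, Slc34a2 and Slc4a3 lower, and the groups of Slc9a2 and Slc26a2 overlap.

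Of the 10 Slc4 genes, 7 were tested and none was called, with 2 positive and 5 negative log2 fold changes. Slc4a3 (AE3, ENSMUSG00000006576, chr1:75546266-75562172, plus strand), an anion exchanger best known from heart and brain, was at 4.52 and 4.63 CPM in WT and 0.975 and 1.40 CPM in KO. That is 94 and 110 counts against 22 and 36, with no overlap. Its log2 fold change of -1.94 (SE 0.31) was the most negative of the tested transporters and missed the threshold (edgeR adjusted p = 0.0503), and it passed in 9 of 15 alternatives.

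Slc4a2, the most abundant Slc4 gene, was at 136 and 83.4 CPM in WT and 97.7 and 113 CPM in KO (-0.06, edgeR adjusted p = 0.904). Its sign turned in 4 of 15 alternatives, and 13.7% of its exon length overlaps Fastk on the opposite strand. Slc4a4 (NBCe1), a sodium bicarbonate cotransporter, was at 32.9 and 19.7 against 14.2 and 18.7 CPM (-0.68, edgeR adjusted p = 0.208), lower in KO without overlap but close between WT replicate 2 and KO replicate 2. Without WT replicate 2 it passed (-0.97, edgeR adjusted p = 0.0408), within a range of 0.0408 to 0.56 over the 4 omissions of 1 library.

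Slc4a7 (NBCn1) was at 40.5 and 40.0 CPM in WT and 49.8 and 43.5 CPM in KO (0.21, edgeR adjusted p = 0.263). Slc4a8 and Slc4a11 had log2 fold changes of -0.63 and -0.71, with overlapping groups. Slc4a1 (AE1, band 3), the anion exchanger of red blood cells, was at 1.203 and 2.018 CPM in WT and 0.62 and 3.70 CPM in KO. Erythroid markers summed to 1975 and 2735 CPM in WT and to 1352 and 6677 CPM in KO, in the same order over the libraries as Slc4a1. Their part in its level was not tested.

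Phosphate transporters were measured in both families. Slc34a2 (ENSMUSG00000029188, chr5:53038081-53071664, plus strand), the sodium-phosphate cotransporter known from the apical membrane of intestine, was at 106 and 145 CPM in WT and 62.4 and 57.1 CPM in KO. Both KO libraries lay below both WT libraries, and the mean was 125 ± 27.7 CPM in WT against 59.8 ± 3.75 CPM in KO (SD, n = 2). Its log2 fold change of -1.07 (SE 0.18) missed the threshold (edgeR adjusted p = 0.0525), and it passed in 7 of 15 alternatives.

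The colonocyte markers, 10 genes, summed to 18090 and 27120 CPM in WT and 16250 and 14220 CPM in KO. Lypd8 alone gave 10179 and 18484 CPM of these sums in WT and 10272 and 8039 CPM in KO. Of the 10, 9 had a negative log2 fold change and 1, the water channel gene Aqp8, was called lower. Their part in the level of Slc34a2 was not tested.

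Slc20a1, the widely expressed phosphate transporter, was at 80.1 and 161 CPM in WT and 84.3 and 108 CPM in KO (-0.33, edgeR adjusted p = 0.578), with WT replicate 2 above the rest and a sign that turned without it (0.29). Posterior Hox genes (7) summed to 158 and 308 CPM in WT and 162 and 148 CPM in KO, also highest in WT replicate 2. Hoxb13 alone gave 88.8 and 201 CPM of these sums in WT and 108 and 95.8 CPM in KO. All 7 Hox genes had a negative log2 fold change, and 1, Hoxd10, was called lower. Their part was not tested. Slc20a2 had a log2 fold change of 0.11, and Slc34a1 (the kidney form) was at 0.289 and 0.336 CPM in WT and 0.443 and 0.896 CPM in KO (1.09, edgeR adjusted p = 0.277).

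Ratios of raw counts within a library need no scaling between libraries. The ratio of Slc9a3 to Slc9a2 was 0.113 and 0.156 in the WT libraries, against 0.356 and 0.180 in the KO libraries. For the phosphate transporters, the ratio of Slc20a1 to Slc34a2 was 0.759 and 1.11 in WT libraries, against 1.35 and 1.89 in KO libraries. For the anion transporters, the ratio of Slc26a3 to Slc26a2 was 0.0528 and 0.0312 against 0.063 and 0.0639. None of these ratios overlapped between the groups. The pairs were chosen after the values were seen, and an exact two-sided permutation test of 2 against 2 libraries cannot go below p = 0.333.

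**Figure D4:**
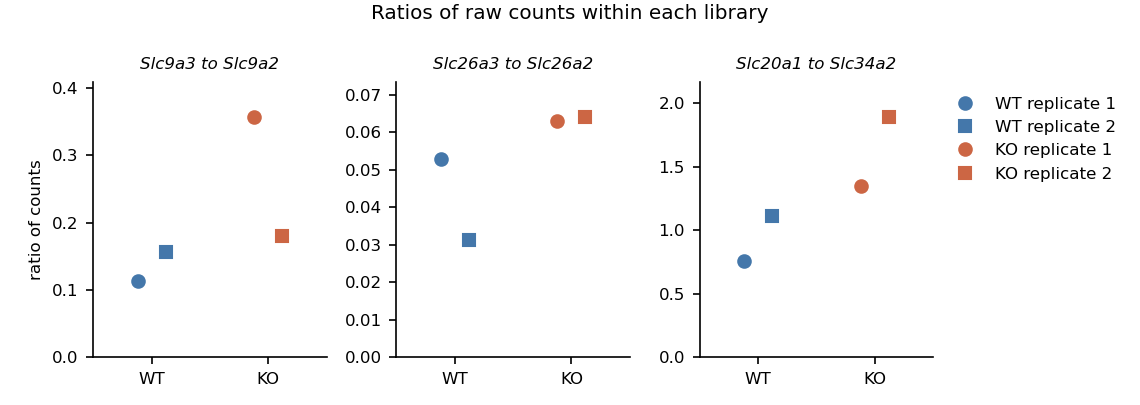
Ratios of raw counts of 2 transporters within each library, on linear axes from 0, with WT left and KO right and 1 point per library. In each of the 3 panels both KO libraries lie above both WT libraries, by the least for Slc9a3 to Slc9a2 in KO replicate 2 (0.180 against 0.156).

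Of the calcium exchangers, 1 of 3 Slc8 and 1 of 5 Slc24 genes passed the filter on low counts. Slc8a1 (NCX1) was at 11.2 and 3.45 CPM in WT and 9.44 and 14.6 CPM in KO (0.72, edgeR adjusted p = 0.456), with WT replicate 2 lowest. Slc24a3 (NCKX3) was at 2.79 and 2.82 CPM in WT and 0.975 and 1.79 CPM in KO (-1.01, edgeR adjusted p = 0.176), lower in KO without overlap.

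The 17 transporters that did not pass the filter had at most 14 counts in any library and 33 over all 4. Slc12a1 (NKCC2, of the kidney), Slc26a5 (prestin, of the inner ear) and Slc24a2 had 0 counts in all libraries. Slc12a3 (the thiazide-sensitive cotransporter) had 2 and 7 counts in WT and 14 and 10 in KO, Slc12a5 (the neuronal KCC2) 5 and 12 against 2 and 3, and Slc8a2 5 and 13 against 6 and 9. The others, Slc34a3, Slc4a5, Slc4a9, Slc4a10, Slc8a3, Slc24a1, Slc24a4, Slc24a5, Slc26a7, Slc26a8 and Slc26a10, had at most 9 counts in any library. No fold change is given for them.

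Proteins that regulate or work beside these transporters were read from 6 lists with 81 genes, of which 68 were tested. In KO 2 rose and 1 fell by edgeR, 4.41% of those tested against 3.61% of all genes. Sgk1, a kinase that activates sodium transport, was at 558 and 689 CPM in WT and 310 and 279 CPM in KO, and fell by 1.08 on the log2 scale (SE 0.17, edgeR adjusted p = 0.0499). Lrrc8d, a subunit of volume-regulated anion channels, was at 19.4 and 21.6 CPM in WT and 39.8 and 46.0 CPM in KO, and rose by 1.07 (SE 0.13, edgeR adjusted p = 0.0434). Neither gene's groups overlapped. The Sgk1 call ended with RLE factors, with the robust option off and with mitochondrial genes left out, and without either KO library edgeR called 0 of all genes, these partners included.

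The potassium channel gene Kcnj15 rose in KO. It had 0 and 1 counts in WT and 30 and 52 in KO (edgeR adjusted p = 0.0465), and the ratio of 82 to 1 counts at equal depth was 75.7 (95% exact counting interval 13.2 to 3030). Its fitted log2 fold change depends on the prior count and is no bound, and its call ended with mitochondrial genes left out. The kinase Oxsr1, which phosphorylates Slc12 cotransporters, was at 45.3 and 42.4 CPM in WT and 30.7 and 29.01 CPM in KO (-0.55, edgeR adjusted p = 0.0553), and its paralogue Stk39 was at 10.2 and 10.8 against 16.2 and 13.9 CPM (0.52, edgeR adjusted p = 0.101). These kinases were named after their values were seen.

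Over the 24 tested transporter regulators, 19 log2 fold changes were negative and 5 positive, with a median of -0.42. Of the 9 tested potassium channels 7 were positive, with a median of 0.48. The sodium pump (median 0.14), the proton and calcium pumps (-0.55), the chloride, bicarbonate and sodium channels (-0.30) and the carbonic anhydrases (-0.28) held the rest, beside -0.0127 over all genes. The abundant members given next were not called. Atp12a, the colonic proton pump, was at 673 and 2154 against 799 and 434 CPM, with WT replicate 2 apart. The log2 fold changes of Atp1b1 (-0.26), the calcium pump Atp2a3 (0.21), the chloride channel Clcn2 (0.47), the sodium channel subunit Scnn1a (-0.56) and the potassium channels Kcnk5 (-1.21) and Kcnk1 (0.29) had edgeR adjusted p from 0.0593 to 0.596. Ezr, which anchors membrane proteins to actin, had a log2 fold change of -0.59 (edgeR adjusted p = 0.216), Car1 of -0.85 (edgeR adjusted p = 0.288) and Car2 of -0.28 (edgeR adjusted p = 0.253).

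**Figure D5:**
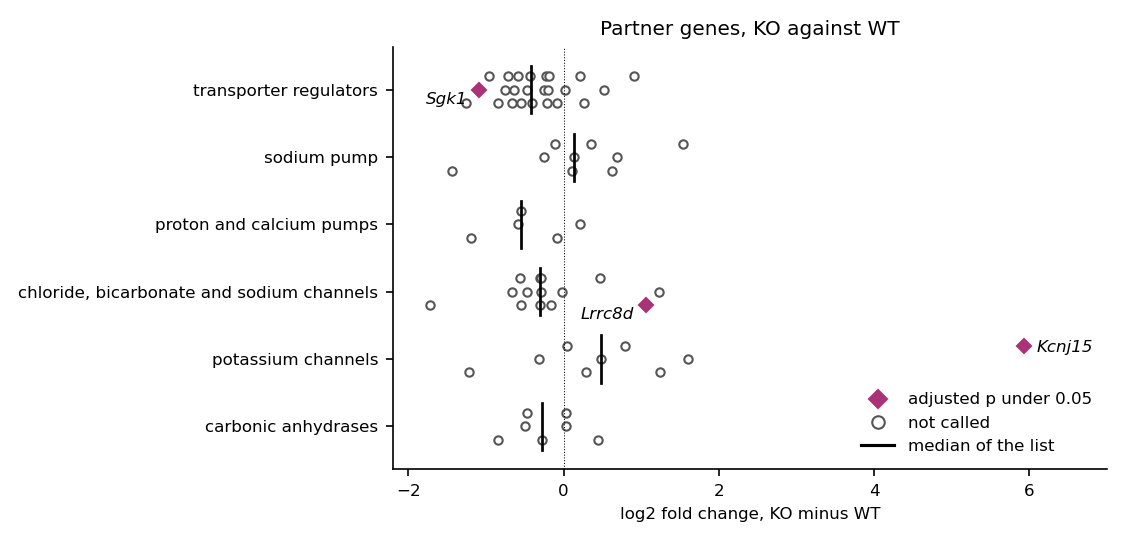
Log2 fold change, KO minus WT, of the 68 tested partner genes by list, with the list's median as a vertical line. Filled diamonds are the 3 genes with an adjusted p under 0.05, and Kcnj15 at the right rests on 1 count in WT.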

How the data were processed

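RNA was measured in 2 WT and 2 KO libraries. The deposited values are raw counts per gene, left unscaled by the authors to judge from their whole numbers and unequal totals. FastQC 0.11.2, STAR 2.4.2a, RSEM 1.2.29 and build mm10 are named without a role, per the submitters' processing notes. Annotation and strandedness: not given in the sources used here. How reads of overlapping and antisense genes were assigned is therefore unknown. Xist and Y-linked counts place libraries of opposite sex in each group, so the replicates are not repeats of 1 animal. Pooling is not stated, and each p-value measures the spread of these libraries, sex included.

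Genes were filtered with filterByExpr (minimum count 10), which left 14861 of 50600, scaled with TMM factors and compared between KO and WT in edgeR 4.0.16 (R 4.3.3) by the two-sided quasi-likelihood F-test, with its legacy and robust options on and 2 residual degrees of freedom. P-values were adjusted by Benjamini-Hochberg, with 0.05 as the threshold. SEs are derived from the F statistic. Exon lengths and coding sequences come from GENCODE M21, which holds 99.56% of the identifiers. The alternatives were other scaling factors, DESeq2 1.42.0, limma-voom (limma 3.58.1), legacy or robust options off, other filters, mitochondrial genes left out, a sex term and omission of each library.

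Transporters and lists were chosen with earlier results of these data known. The genes named are Mettl14, transporters called or with an unadjusted p under 0.05 and no overlap, the 12 most abundant transporters, and the called and 2 most abundant genes of each partner list. Some genes that this rule takes are not reported here. Other transporters are given to account for members, and genes named outside this rule are said to be so or are markers. Best4, a listed partner, was not analysed here.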

Additional observations from a re-analysis of the deposited data

How the results depend on the processing

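The direction of the 5 uncalled transporters nearest the threshold held under all 15 alternatives, while the number called moved. Counts of transporters called are given as higher and lower in KO, then of partner genes, then of all genes, beside 0 and 1, 2 and 1, and 255 and 282. RLE factors gave 0 and 0, 2 and 0, and 217 and 219. Upper quartile factors gave 2 and 2, 3 and 1, and 416 and 265. Library size scaling gave 2 and 2, 5 and 2, and 589 and 181, with 76.5% of calls higher and a median shift of 0.166 over genes in the log2 fold change. DESeq2 gave 3 and 3, 7 and 8, and 952 and 975. Limma-voom gave 1 and 2, 2 and 2, and 282 and 300. The legacy option off gave 0 and 2, 2 and 1, and 275 and 302. The robust option off gave 0 and 2, 2 and 0, and 243 and 263. No filter gave 3 and 3, 5 and 5, and 862 and 770. A filter of CPM of at least 1 in 2 libraries gave 1 and 3, 3 and 3, and 366 and 388. Mitochondrial genes left out gave 0 and 0, 1 and 0, and 185 and 163. The sex term gave 2 and 4, 5 and 6, and 696 and 713.

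Without 1 library (a lone library is then assumed to vary like the other group), transporters ranged from 0 to 2 higher and 0 to 4 lower, partners from 0 to 10 higher and 0 to 10 lower, and all genes from 0 to 1272 higher and 0 to 1020 lower. The zeros are the omissions of KO replicate 1 and of KO replicate 2, where edgeR left 2257 and 1987 genes, 8 transporters each time, at an unadjusted p under 0.05. At that unadjusted level, an addition made after seeing the data, transporters numbered 3 to 8 higher and 3 to 6 lower without 1 library, 11 and 6 with the sex term, and 7 to 10 and 3 to 4 under the other alternatives, beside 9 and 3.

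Signs turned for Slc4a2 with upper quartile factors (0.012) and library size scaling (0.12; -0.33 to 0.33 without 1 library) and for Slc26a2 with library size scaling (0.017; -0.48 to 0.30). Without 1 library they also turned for Slc20a1 (-0.75 to 0.29), Slc4a1 (-1.36 to 1.18), Slc4a8 (-1.09 to 0.086), Slc9a5 (-0.11 to 0.60) and Slc26a4 (-1.58 to 0.0049). The cause was not tested. No paired analysis was possible because the replicate numbers follow accession order and name no shared animal or batch. The filter on low counts left the 17 transporters with at most 14 counts in any library untested.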
